A study of Oryctolagus cuniculus with 10 samples.

Results

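Stem cells from the rabbit infrapatellar fat pad were compared after growth on the decellularized matrix of human urine stem cells (USC dECM) and after growth on tissue culture plastic, first as expanded cells and then as pellets. The comparison rests on 4 of the 10 libraries of the series, 1 for each substrate at each stage, and was chosen by sample label. The cells came from New Zealand White rabbits. The groups were cells on plastic, cells on USC dECM, and pellets made from each of these and kept for 21 days in medium that induces cartilage formation. All 4 libraries share the same cell source, and the labels used here do not state the number of animals, the passage or any pooling. The other 6 libraries, from cells and pellets on matrix of human adipose stem cells (ASC), dermal fibroblasts (DF) and synovium-derived stem cells (SDSC), served as background. Of 29587 rabbit genes in the table, 21536 had reads and 12244 had a mean of at least 1 RPKM (reads scaled to gene length and library size) over the 10 libraries. These 12244 genes were compared.

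Decellularized matrix is the network of collagens, fibronectin and other proteins left behind when the cells that secreted it are stripped away. Cells that expand on it meet adhesion sites and bound factors that plastic lacks. In pellet culture, cells are packed into a small aggregate, a setting that resembles the condensation that precedes cartilage, and chondrogenic medium then drives them to lay down cartilage matrix. Urine stem cells are adherent progenitors collected from urine. The question that the paired stages pose is which differences between the substrates were still present after the cells had left the matrix and differentiated.

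Genes carry Ensembl identifiers without symbols in the table. Genes are therefore described by level, length and difference, with a few identifiers, and neither pathway genes nor markers of fat pad stem cells or chondrocytes could be looked up. The deposited values hold enough digits to recover whole reads and a whole length for each gene with reads. Where a gene's reads share a factor with its length, both may be understated. The 4 libraries held 18187320 reads in genes (cells on plastic), 18451307 (cells on USC dECM), 17593810 (pellets after plastic) and 19157154 (pellets after USC dECM). The 6 background libraries held from 14021150 to 19827859. Differences are USC dECM minus plastic on the log2(RPKM + 1) scale, so 1 stands for a doubling in well expressed genes and for more than that in low ones. With 1 library per substrate and stage there is no replicate check. For single genes an interval is given that covers counting error only (95%, exact, on the log2 ratio of the reads).

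In cells, 432 genes were higher on USC dECM than on plastic by at least 1 (3.53% of those compared) and 498 were lower (4.07%), 930 in all (7.6%). In pellets, 97 genes were higher (0.792%) and 55 lower (0.449%), 152 in all (1.24%). The median difference over all 12244 genes was -0.0045 in cells and -0.099 in pellets. The root-mean-square difference was 0.619 in cells and 0.316 in pellets. The share of higher genes in the pellet set, 63.8%, depended on the scaling: it was 76.5% (117 higher, 36 lower) with each difference centred on its median, and median-of-ratios scaling gave 108 higher and 36 lower. In cells the share was 46.5%, and 46.7% and 47.5% under these settings.

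The cell differences were mostly gone in the pellets. Of the 930 genes past 1 in cells, 706 (75.9%) differed by less than 0.5 in the pellets, against 91.8% of all compared genes. Another 102 kept their direction at 0.5 to 1, and 40 kept it at 1 or more. In the opposite direction, 68 lay at 0.5 to 1 and 14 at 1 or more. Among the 706, 119 were under 1 RPKM in both pellet libraries, so that for these the gap ended with the transcript near absence. The others were at 1 RPKM or above in at least 1 of the pellet libraries.

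**Figure D1:**
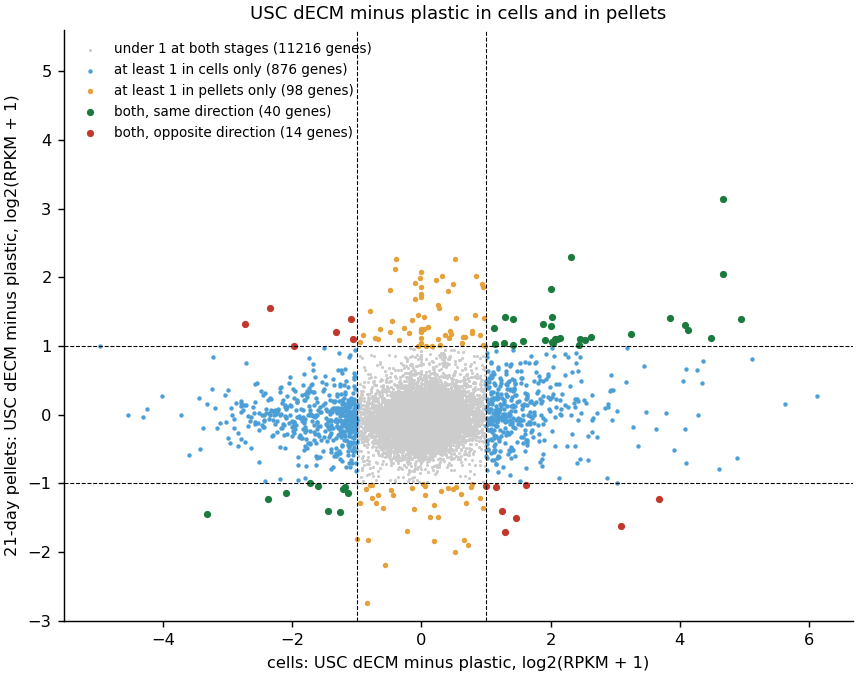
Each point is 1 of 12244 genes, with the USC dECM minus plastic difference in cells on the horizontal axis and in 21-day pellets on the vertical axis, both on the log2(RPKM + 1) scale, and dashed lines at 1 and -1. Most of the cell differences lie in the horizontal band between the dashed lines, 40 genes are past 1 at both stages in the same direction and 14 in opposite directions.

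Of the 432 genes higher on USC dECM in cells, 30 were still higher by at least 1 in pellets (6.94%, against 0.792% of all compared genes) and 59 by 0.5 to 1. Of the 498 lower genes, 10 were still lower by at least 1 (2.01%, against 0.449%) and 43 by 0.5 to 1. Their median pellet differences were 0.08 for the higher and -0.05 for the lower genes, beside -0.099 for all genes, so the lower set as a whole lay no lower than the other genes. A total of 300 of the 432 higher genes (69.4%) lay above the median of all genes in pellets, as did 288 of the 498 lower genes (57.8%). In pellets, 39 genes of the higher set (9.03%) and 84 of the lower set (16.9%) were under 1 RPKM in both libraries, where a difference of 1 cannot be reached on this scale. Whether the higher and lower genes differ in how many differences lasted was not tested, since genes of 1 library are not replicates.

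Among the higher genes, those with the larger difference in cells were more often still higher in pellets. Of 323 genes higher by 1 to 2 in cells, 9 (2.79%) were higher by at least 1 in pellets, with a median pellet difference of 0.04. Of 75 genes higher by 2 to 3, 13 (17.3%) were, with a median of 0.23. Of 34 genes higher by 3 or more, 8 (23.5%) were, with a median of 0.37. No such order was seen among the lower genes, where 7 of 372 (1.88%) genes lower by 1 to 2 and 2 of 107 (1.87%) genes lower by 2 to 3 were still lower by at least 1. Among the 19 genes lower by 3 or more, 1 was. Reversal by at least 1 followed no steady order: of the higher genes, 6 of 323, 0 of 75 and 2 of 34 were lower in pellets. Of the lower genes, 4 of 372, 2 of 107 and 0 of 19 were higher. Across all 12244 genes the differences at the 2 stages correlated weakly (Pearson r = 0.134, Spearman rho = 0.124, over genes, which are not independent and come from the same 4 libraries).

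The gap closed more from USC dECM in the higher genes and more from plastic in the lower genes, in each set the side with the higher cell level. The 432 genes higher on USC dECM had a median of 4.38 RPKM on plastic and 17.6 RPKM on USC dECM in cells, and of 10.1 and 10.6 RPKM in the pellets. The 498 lower genes had a median of 12.7 RPKM on plastic and 2.90 RPKM on USC dECM in cells, and of 4.96 and 4.56 RPKM in the pellets. Thus in both sets the median pellet levels lay between those of cells on plastic and on USC dECM. Single genes could differ: in pellets ENSOCUG00000027368 lay below both of its cell levels and ENSOCUG00000006901 above both. The median change from cells to pellets in the higher set was -0.83 on USC dECM and 0.62 on plastic. In the lower set it was 0.34 on USC dECM and -1.10 on plastic. Over all compared genes it was 0.14 on USC dECM and 0.23 on plastic. Of the 291 higher genes whose difference went under 0.5, a move of at least 0.5 towards the other substrate was made by the USC dECM library alone in 141, by the plastic library alone in 98 and by both in 49. Of the 415 lower genes of this kind, the plastic library alone moved in 230, the USC dECM library alone in 126 and both in 54. The genes were chosen on their cell levels, so part of this approach follows from the choice, and how much was not tested.

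The other matrices give the background at both stages, in libraries that entered the filter on mean level but not the difference that defines the sets. In cells, the higher set had a median of 19.3 RPKM on ASC dECM, 18.3 RPKM on DF dECM and 9.33 RPKM on SDSC dECM, and the lower set 3.67, 4.45 and 5.31 RPKM. In the pellets the higher set stood at 10.6, 10.8 and 9.49 RPKM after ASC, DF and SDSC dECM, and the lower set at 4.62, 4.62 and 5.09 RPKM. The median cell levels on ASC and DF dECM thus lay near those on USC dECM, and those on SDSC dECM lay between these and plastic. In pellets the set medians of all 5 libraries lay close together, which does not speak to single genes. Set against plastic, the higher genes had median cell differences of 1.49 for ASC, 1.48 for DF, 0.68 for SDSC and 1.45 for USC dECM, and the lower genes -1.49, -1.22, -0.91 and -1.46. These 4 comparisons share the plastic library, so their likeness is no separate result.

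**Figure D2:**
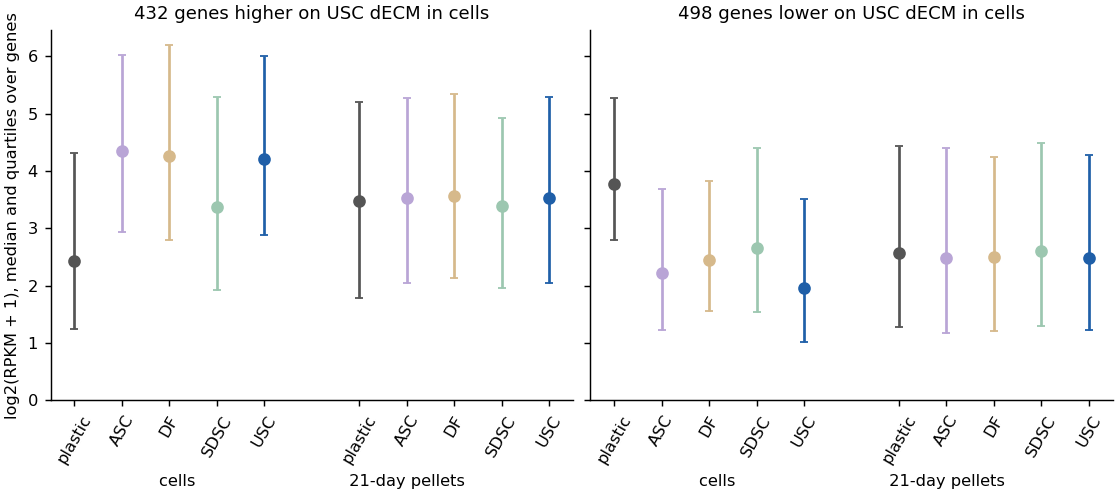
Points are the median log2(RPKM + 1) over the genes that were higher (left, 432 genes) or lower (right, 498 genes) on USC dECM than on plastic in cells, and bars run from the lower to the upper quartile over genes, for each of the 5 cell and 5 pellet libraries. In pellets the medians of the 5 libraries lie close together in both panels, at 9.49 to 10.8 RPKM for the higher and 4.56 to 5.09 RPKM for the lower genes.

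The share of reads held by each set gives the scale of these differences. In the USC dECM and plastic cell libraries its direction follows from the choice of the genes. The higher genes held 10.1% of all reads on USC dECM and 2.25% on plastic in cells, and in the pellets 5.21% after USC dECM and 4.83% after plastic. The lower genes held 2.92% on USC dECM and 9.08% on plastic in cells, and 4.86% and 4.80% in the pellets. On ASC, DF and SDSC dECM the higher genes held 12.3%, 10.98% and 4.52% of the reads in cells, and the lower genes 2.83%, 3.12% and 7.05%. In the pellets after ASC, DF and SDSC dECM the higher genes held 5.17%, 6.51% and 5.13%, and the lower genes 5.39%, 4.17% and 6.19%.

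The named genes with the largest positive differences in cells reached similar levels in the pellets of plastic and USC dECM. This did not hold for every large cell difference. As described below, ENSOCUG00000024425 stayed higher after USC dECM in pellets, and the difference of ENSOCUG00000006901 took the other direction. ENSOCUG00000027368, with a recovered length of 249 bases, was at 35.8 RPKM on plastic and 2565 RPKM on USC dECM. This was a difference of 6.13 (counting interval 5.94 to 6.397). The gene was at 7095, 3838 and 96.6 RPKM on ASC, DF and SDSC dECM. In pellets it had 0 reads after plastic and 1 read after USC dECM, and at most 18.6 RPKM, after SDSC dECM. The transcript was thus abundant on 3 of the 4 matrices and close to absent in the pellets of plastic and USC dECM alike. ENSOCUG00000011835 (1500 bases) was at 13.9 RPKM on plastic and 740 RPKM on USC dECM (difference 5.63, counting interval 5.59 to 5.88), and at 2186, 1953 and 130 RPKM on ASC, DF and SDSC dECM. In pellets it was at 221 RPKM after plastic and 247 RPKM after USC dECM, inside the range of 69.3 to 1614 RPKM of the other 3. Here the plastic library was higher in pellets than in cells and the USC dECM library lower.

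Both genes with the largest negative differences in cells were well expressed in all pellets. ENSOCUG00000006901 (1913 bases) was at 77.0 RPKM on plastic and 1.47 RPKM on USC dECM, a difference of -4.98 (counting interval -6.13 to -5.31 on the ratio of reads, which has no pseudocount). It was at 0.895, 0.698 and 10.2 RPKM on ASC, DF and SDSC dECM. In pellets it was at 108 RPKM after plastic and 216 RPKM after USC dECM, a difference of 0.9979 in the other direction, just under the fold used, with 199, 154 and 73.8 RPKM after ASC, DF and SDSC dECM. The pellet difference passed the fold with a pseudocount of 0.1 RPKM (1.004), median-of-ratios scaling (1.09), quantile normalization (1.18) and centring (1.097), and the gene then counts among those that turned. ENSOCUG00000008193 (1696 bases), the more abundant of the pair, was at 2850 RPKM on plastic and 143 RPKM on USC dECM (difference -4.31, counting interval -4.37 to -4.28). On ASC and DF dECM it was at 102 and 122 RPKM. On SDSC dECM it was at 1786 RPKM, below plastic but nearer to it than to USC dECM. In the 5 pellets it lay between 675 and 985 RPKM, with 897 RPKM after plastic and 881 RPKM after USC dECM, a difference of -0.03 that took the other sign with median-of-ratios scaling (0.07) and with centring (0.07).

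The genes that kept a difference through pellet culture were led by ENSOCUG00000024425 (599 bases) and ENSOCUG00000029337 (1794 bases), which also had the largest pellet differences. ENSOCUG00000024425 was at 4.04 RPKM on plastic and 128 RPKM on USC dECM in cells (44 and 1413 reads), and at 35.8 and 325 RPKM in the pellets (377 and 3726 reads), differences of 4.68 and 3.15. The counting intervals were 4.55 to 5.45 in cells and 3.03 to 3.34 in pellets. The other matrices ranged from 8.92 RPKM on SDSC to 517 RPKM on ASC in cells and from 70.3 RPKM after SDSC to 583 RPKM after DF in pellets, so plastic was the lowest of the 5 libraries at both stages. ENSOCUG00000029337 was at 1.35 and 10.7 RPKM in cells and at 20.7 and 106 RPKM in pellets, differences of 2.31 (counting interval 2.53 to 3.47 without the pseudocount) and 2.30 (2.24 to 2.48). In cells SDSC dECM, at 0.928 RPKM, was below plastic, and ASC and DF dECM were at 89.2 and 107 RPKM, above USC dECM. In pellets plastic was again the lowest of the 5, and DF the highest at 243 RPKM.

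Of the 30 genes higher at both stages, 26 had counting intervals on 1 side of 0 at both stages, and 21 had a mean of at least 5 RPKM. Their median difference was 2.09 in cells and 1.15 in pellets. In cells they held 1.80% of the reads on USC dECM and 0.110% on plastic, and in pellets 0.334% and 0.120%. On ASC, DF and SDSC dECM they held 3.47%, 2.72% and 0.482% of the reads in cells. Their median level in pellets was 8.45 RPKM after plastic and 19.9 RPKM after USC dECM. After ASC, DF and SDSC dECM it was 19.2, 25.7 and 19.997 RPKM. The direction between USC dECM and plastic follows from the choice of the genes at both stages.

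Fewer genes, 10, were lower at both stages, 7 of them beyond counting error at both stages and 4 under 300 bases. By the rule of size, ENSOCUG00000011487 (1803 bases) led them. It was at 81.2 RPKM on plastic and 14.8 RPKM on USC dECM in cells and at 7.69 and 2.72 RPKM in pellets, differences of -2.38 and -1.22. The other matrices lay between 9.23 and 11.7 RPKM in cells and between 1.06 and 3.44 RPKM in pellets, so plastic was the highest library at both stages. ENSOCUG00000009833 (4227 bases) was at 15.2 and 6.36 RPKM in cells and at 3.63 and 1.11 RPKM in pellets, differences of -1.14 and -1.13. Plastic was again the highest and USC dECM the lowest of the 5 libraries at both stages, although SDSC dECM cells, at 12.98 RPKM, came close to plastic. With a pseudocount of 5 RPKM its differences were -0.83 and -0.50 and the pellet difference of ENSOCUG00000011487 was -0.72, so neither passed the fold at both stages.

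Of the 14 genes past 1 in opposite directions, most were short. Of the 432 genes higher in cells, 8 were lower by at least 1 in pellets (1.85%, against 0.449% of all compared genes). Of the 498 genes lower in cells, 6 were higher by at least 1 in pellets (1.20%, against 0.792%). Counting intervals were on 1 side of 0 at both stages in 8 of the 14, and 9 of the 14 were under 300 bases, against 5.44% of all compared genes. ENSOCUG00000020032 (74 bases) shows the limit: its 1.49 and 5.13 RPKM in cells stood for 2 and 7 reads and its 13.8 and 3.53 RPKM in pellets for 18 and 5 reads. The cell difference of 1.30 had a counting interval of -0.61 to 5.09 and was thus not separable from 0 at this depth, while that of -1.71 in pellets had one of -3.76 to -0.49. ENSOCUG00000009897 (821 bases) turned with more reads, from 87.1 RPKM on plastic and 209 RPKM on USC dECM in cells (1301 and 3170 reads) to 14.7 and 4.96 RPKM in pellets (213 and 78 reads). Its differences were 1.25 (counting interval 1.17 to 1.36) and -1.40 (-1.97 to -1.19). On the other matrices it was at 214 to 255 RPKM in cells, all above plastic, and at 5.44, 7.41 and 25.2 RPKM in pellets, where SDSC lay above plastic.

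In the other direction, ENSOCUG00000008012 (453 bases) was at 75.01 RPKM on plastic and 10.4 RPKM on USC dECM in cells (difference -2.74, counting interval -3.19 to -2.52). In pellets it was at 1.004 and 4.03 RPKM, 8 and 35 reads (difference 1.33, counting interval 0.87 to 3.33). The other matrices lay between 14.8 and 23.2 RPKM in cells and between 1.14 and 2.30 RPKM in pellets, so USC dECM was the lowest of the 5 libraries in cells and the highest in pellets. ENSOCUG00000008651 (1321 bases) was at 9.11 and 3.04 RPKM in cells and at 2.62 and 7.35 RPKM in pellets, differences of -1.33 (counting interval -1.99 to -1.20) and 1.20 (1.06 to 1.93). Its levels on ASC, DF and SDSC dECM were 1.73, 1.15 and 9.81 RPKM in cells and 24.0, 11.01 and 41.1 RPKM in pellets, so SDSC dECM cells stood with plastic and USC dECM was the lowest of the 4 matrices in pellets. With a pseudocount of 5 RPKM none of the 4 turned genes described passed the fold at both stages. The differences that fell short were the pellet values of ENSOCUG00000009897 (-0.99) and ENSOCUG00000008012 (0.59), both values of ENSOCUG00000008651 (-0.81 and 0.70) and the cell value of ENSOCUG00000020032 (0.64).

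**Figure D3:**
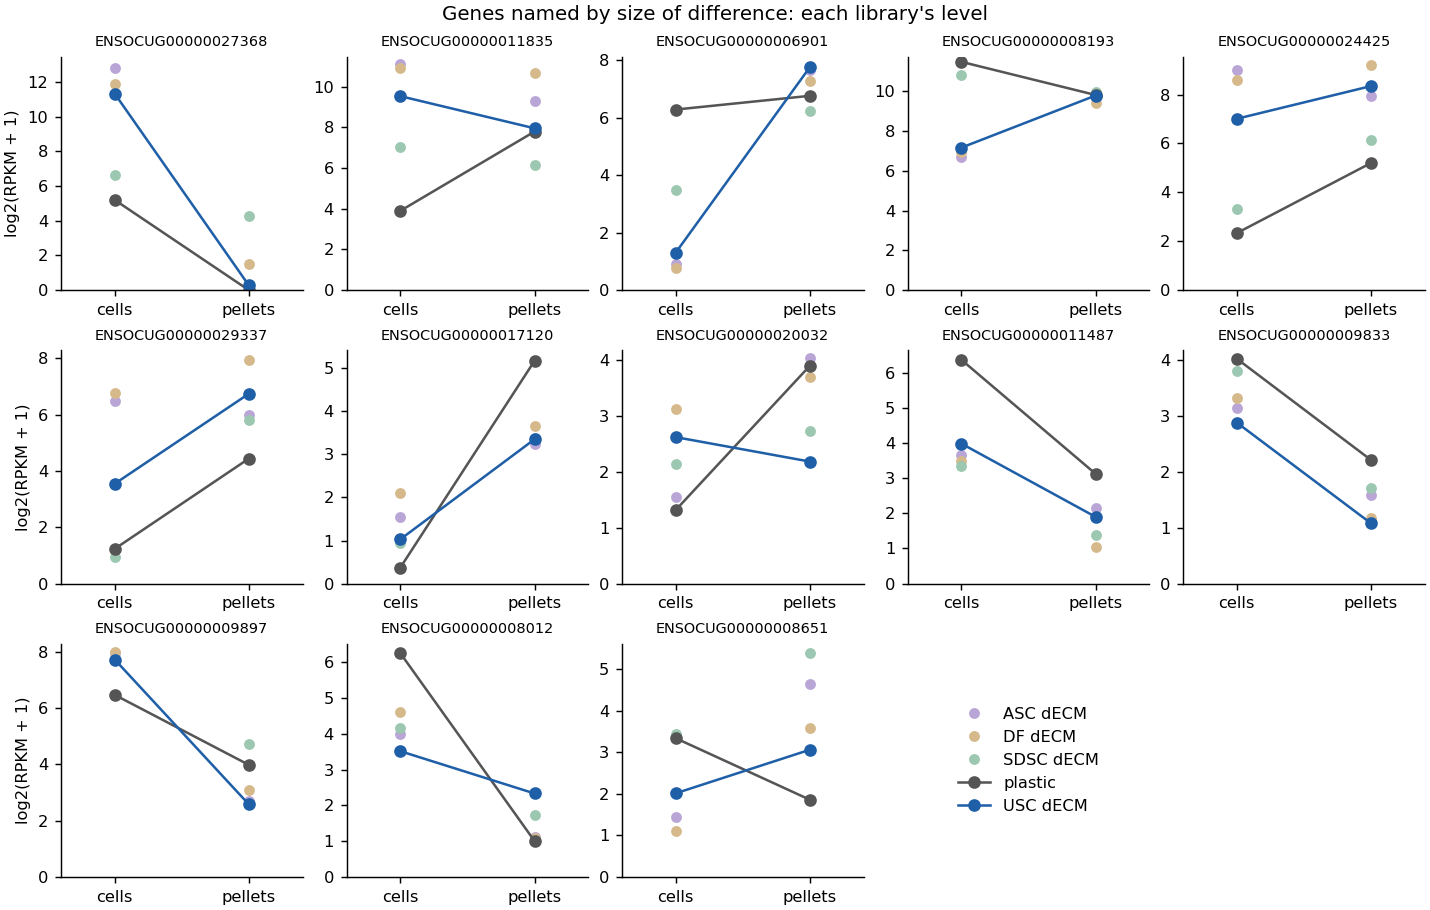
Each panel shows 1 of the 13 genes chosen by size of difference, with log2(RPKM + 1) in cells and in 21-day pellets, lines for plastic and USC dECM and points for the other 3 matrices (1 library per point). Lines that converge are differences that vanished (ENSOCUG00000008193, -4.31 in cells and -0.03 in pellets), and lines that cross are differences that turned (ENSOCUG00000008012, -2.74 and 1.33).

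Of the 152 genes that differed in pellets, 40 had differed by at least 1 in the same direction in cells (26.3%) and 27 by 0.5 to 1. In the opposite direction, 16 had differed by 0.5 to 1 and 14 by at least 1 in cells. The other 55 (36.2%) had differed by less than 0.5 in cells, against 77.05% of all compared genes, and 22 of these were under 1 RPKM in both cell libraries. By direction, 30 of the 97 higher genes had been higher by at least 1 in cells (30.9%, against 3.53% of all), and 10 of the 55 lower genes had been lower (18.2%, against 4.07%). The 97 higher genes had a median cell difference of 0.43 and the 55 lower genes one of 0.02, beside -0.0045 for all genes. ENSOCUG00000017120 (2239 bases) had the largest negative pellet difference by the rule of size, with 35.1 RPKM after plastic and 9.21 RPKM after USC dECM (1383 and 395 reads, difference -1.82, counting interval -2.10 to -1.77). In the other pellets it was at 8.51 to 11.6 RPKM, so plastic stood above all 4 matrices. In cells it was low everywhere, at 0.295 RPKM on plastic and 0.924 to 3.32 RPKM on the matrices. There it was higher on USC dECM, at 1.04 RPKM (12 reads on plastic and 43 on USC dECM). This cell difference of 0.66 (counting interval 0.87 to 2.88 without the pseudocount) was opposite to that in pellets and under the fold. With a pseudocount of 0.1 RPKM the differences were 1.53 and -1.92, and the gene then counts among those that turned. The pellet levels of the 97 higher genes had medians of 2.05 RPKM after plastic, 7.35 RPKM after USC dECM and 5.51, 7.11 and 6.65 RPKM after ASC, DF and SDSC dECM. Those of the 55 lower genes were 6.10, 2.06, 3.44, 3.91 and 3.95 RPKM in the same order. The genes were chosen on the plastic and USC dECM pellet levels, so the direction between these 2 follows from the choice. Of the 97, 15 had no reads after plastic, and of the 55, 9 had none after USC dECM. The other pellets are set against the same plastic library, so the side of plastic on which they lie is no separate result.

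Short genes made up much of the pellet set. Of the 152, 66 (43.4%) were under 300 bases, against 666 of all 12244 (5.44%) and 102 of the 930 in cells (10.97%). In genes under 100 bases, 26.0% (40 of 154) were past 1 in pellets and 29.2% (45) in cells, where the median number of reads over both libraries compared was 11 and 10. In genes of 3000 bases or more the shares were 0.453% (14 of 3092) and 7.73% (239), at a median of 2052 and 1669 reads. The counting interval lay on 1 side of 0 in 9 of the 40 shortest genes in pellets and in all 86 genes of at least 300 bases (61 higher, 25 lower), 108 of 152 in all. In cells it did so in 888 of 930. The number of genes past the fold fell less from cells to pellets among genes under 300 bases, from 102 to 66, than among longer ones. Of genes of at least 300 bases, 828 differed in cells and 86 in pellets, 32 at both stages in the same direction and 5 in opposite directions.

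**Figure D4:**
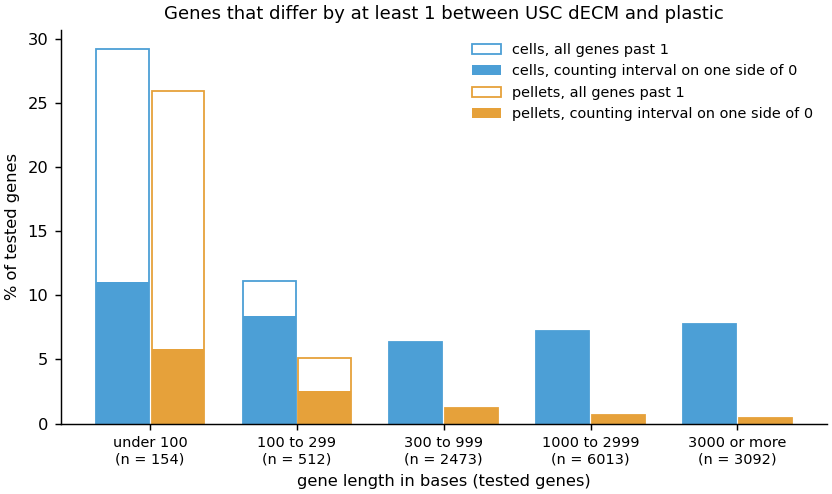
Bars give the percentage of compared genes that differed by at least 1 between USC dECM and plastic, in cells (blue) and in pellets (orange). Genes are grouped by recovered length in bases. The filled part is the genes whose counting interval lies on 1 side of 0, which is 9 of 40 genes under 100 bases in pellets and all genes from 300 bases upwards.

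Set against every other library of its stage, the USC dECM library was farthest from plastic in cells and farthest from SDSC dECM in pellets. In cells, 302 genes differed by at least 1 from ASC dECM, 296 from DF dECM and 414 from SDSC dECM, against the 930 from plastic. In pellets, 168 differed from ASC, 155 from DF and 400 from SDSC dECM, against the 152 from plastic. The root-mean-square differences in pellets were 0.306 for ASC, 0.309 for DF, 0.316 for plastic and 0.431 for SDSC, so the first 3 lay within 0.011 of each other and plastic was not set apart from ASC and DF dECM on this measure. All these comparisons share the USC dECM library. A level beyond all 3 other matrices by at least 1 was rare: USC dECM stood above them in 14 genes and below in 17 in cells, and in 8 and 18 genes in pellets.

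Differences were tested with limma in a fit of all 10 libraries, in which the spread among ASC, DF and SDSC dECM within a stage is the error and the single plastic and USC dECM libraries are assumed to vary like these. No gene passed an adjusted p of 0.05 (0%) in cells, in pellets, for the mean of both stages or for the change of the difference from cells to pellets. The smallest adjusted p values by limma were 0.0517, 1, 0.304 and 0.313 in that order, and 1390, 206, 944 and 780 genes had an unadjusted p under 0.05, which is 11.4%, 1.68%, 7.71% and 6.37% of those compared. limma-voom on the recovered reads called 11 higher and 41 lower genes in cells and 0 in the other comparisons. Thus neither the vanishing nor the turning of any single gene was called against this error. ENSOCUG00000008012 was the closest among the genes named here, with a change of 4.06 (SE 0.563, limma, adjusted p = 0.313, unadjusted 0.000151) and a cell difference at an adjusted p of 0.0526 by limma (0.00626 to 0.309 over the alternatives). For ENSOCUG00000024425 the mean over both stages was 3.91 at an adjusted p of 0.666 by limma.

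The error depended on the SDSC dECM libraries, whose medians in both cell sets lay between plastic and the other matrices. Without these, the error rests on ASC and DF dECM alone, with fewer residual degrees of freedom. The medians of these matrices in cells lay close together, at 19.3 and 18.3 RPKM in the higher set and 3.67 and 4.45 RPKM in the lower. Of 12244 genes, limma then called 588 higher and 605 lower in cells and 0 in pellets. It called 229 and 222 for the mean of both stages, and 91 and 144 for the change from cells to pellets. Without the ASC or without the DF dECM libraries no gene was called in any of the comparisons. Without the SDSC libraries, the change of the difference was called for ENSOCUG00000006901 (5.98, limma, adjusted p = 0.00195) and ENSOCUG00000008193 (4.29, limma, adjusted p = 0.0112), for ENSOCUG00000011835 (-5.47, limma, adjusted p = 0.0345), and for ENSOCUG00000008012 (4.06, limma, adjusted p = 0.0167) and ENSOCUG00000009897 (-2.66, limma, adjusted p = 0.0163). The mean of both stages was then called for ENSOCUG00000024425 (3.91, limma, adjusted p = 0.0106) but not for ENSOCUG00000029337 (2.31, limma, adjusted p = 0.0828).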

How the data were processed

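Per the labels' protocols, total RNA (Trizol, RNeasy) went into libraries of the KAPA mRNA HyperPrep type. Per the submitters' processing notes, reads were processed with Subread and featureCounts on build OryCun2.0; the versions, gene annotation and strandedness are not given in the sources used. The authors deposited log2 values, which equal log2(RPKM + 1) with 0.0001 added. Undoing this gave whole reads for all 21536 genes above 0 (deviation at most 0.02). With 1 common factor, lengths were whole (within 0.02) in 99.93% of 10559 genes with over 500 reads and under 6000 bases, against 3.84% for other factors, and recovered reads fell short of the implied library sizes by at most 0.0113%. Where a gene's reads share a factor with its length, the reads and the length may both be understated.

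The filter kept genes whose RPKM averaged 1 or more across all libraries, and the pseudocount was 1 RPKM. The gene nearest inside this filter had a mean of 1.0004 RPKM (cell difference 0.49, pellet difference -0.18) and the one nearest outside 0.9999 RPKM (0.05 and 0.18). The smallest difference counted in cells was -1.0004 and the largest not counted -0.9999; in pellets these were -1.0006 and 0.9979. Counting intervals are exact 95% intervals of the split of reads between 2 libraries (scipy 1.17.1, Python 3.11.15) and compare libraries, not conditions. limma 3.58.1 (R 4.3.3, two-sided, Benjamini-Hochberg, variance prior that follows level, 4 residual degrees of freedom) was tested on simulated data, as was the recovery of reads. The simulated ASC, DF and SDSC libraries of a stage shared the same mean for each gene. The simulation therefore does not cover the real differences between these matrices, which form the error of the fit. p-values measure the spread between matrices, not between cultures or animals.

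Named genes were, among those with a mean of at least 5 RPKM, up to 2 per direction with the largest difference in cells, in pellets, at both stages in 1 direction, and in opposite directions (at least 0.5 at each). The comparison and this rule were chosen with earlier results of these data known. The names table (assembly mOryCun1.1, 38822 genes) matched 0 identifiers, so the gene lists prepared for pathways and cell types were not used. Alternatives were other pseudocounts, filters, scalings, folds and error models.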

Additional observations from a re-analysis of the deposited data

How the results depend on the processing

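Counts of genes past the fold in cells, in pellets, at both stages in the same direction and in opposite directions were 930, 152, 40 and 14, with 75.9% of the cell genes gone in pellets. They were 1329, 360, 114, 62 and 64.4% with a pseudocount of 0.1 RPKM, and 463, 28, 10, 1 and 85.1% with 5 RPKM. A filter at a mean of 5 RPKM, which kept 9211 genes in place of 12244, gave 607, 77, 25 and 8. A fold of 2 on the log2 scale gave 235, 11, 3, 0 and 88.1% (gone then means under 1), and a 1.5-fold limit 2235, 656, 198, 105 and 62.2%. Counting intervals on 1 side of 0 left 8 turned genes. The 11578 genes of at least 300 bases alone, a setting added after the data were seen, gave 86 in pellets, 5 turned and 79.2% gone. Median-of-ratios scaling, quantile normalization, centring and no filter left these counts within 1.5 times, and the pellet split was 108 higher to 36 lower, 102 to 42, 117 to 36 and 123 to 81.

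limma calls were 0 in each of the 4 comparisons. With no filter, which left 21536 genes, there were 268 in cells, 197 in pellets, 287 for the mean of both stages and 269 for the change of the difference. The cause was not tested. In cells alone, calls numbered 1 with a pseudocount of 0.1 RPKM, 28 with quantile normalization, 68 with a prior that ignores level, 52 with limma-voom and 80 in genes of at least 300 bases, the last 2 added after the data were seen. Leaving out 1 other matrix at a time gave, of 12244 genes, 0 to 1193 calls in cells, 0 to 451 for the mean and 0 to 235 for the change. A fit of stage plus 5 substrates called 0 for the mean, and pairing each pellet library with the cells of its substrate called 0 for the change. For 204 values of named genes under the alternatives, the shift from the main value was set against the reach of the counting interval to either side of its middle. The shift stayed within that reach in 173 and went beyond it in 31, 14 of these with a pseudocount of 5 RPKM. This measures the size of the shift, so a shifted value may still lie inside its interval. No value past the fold changed sign. Each value rests on 1 library, so neither depth nor these settings speak to differences between cultures.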

Other observations

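The filter left out 9292 genes that had reads in at least 1 library. Of these, 159 differed by at least 1 between USC dECM and plastic in cells and 52 in pellets. Among the 12244 compared genes, USC dECM cells lay above all 3 other matrices in 34.9% and below in 20.7%, and USC dECM pellets in 20.5% and 20.2%; the median difference from the other matrices was 0.04 to 0.06 in cells and -0.06 to 0.05 in pellets. Among the 930 genes past the fold in cells, 13 had no reads on plastic and 15 had none on USC dECM.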
